A study of Drosophila melanogaster with 2 samples.

Results

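The translation initiation factor genes of Drosophila melanogaster were taken as all protein-coding genes of the dm6 annotation whose symbol starts with eIF, which gave 44 of the 13968 protein-coding genes on the chromosome arms. A gene was called bound when the summit of a peak lay within 1000 bp of any of its transcription start sites (TSSs). The peaks come from chromatin immunoprecipitation and sequencing of the zinc-finger protein Oaz in whole embryos aged 0 to 24 h. The transgenic flies carried Oaz fused to eGFP, chromatin was sheared by sonication to 200 to 800 bp, and the pull-down went through GFP, although another field of the labels names Oaz as the antibody. Both biological replicates (2 libraries) belong to the same group, no other condition was compared, and expression was not measured. Whole embryos pool all cell types and stages, so a site occupied in few cells and a site occupied weakly in many cannot be told apart. The optimal list, made by the authors from both replicates and a control, held 2772 peaks on the arms, while 1759 were listed for replicate 1 and 1670 for replicate 2. Each peak has a deposited signal whose scale is not stated. No difference is therefore read between a value of the optimal list and a value of 1 replicate, also where both are printed or drawn together. Only peak lists were used, so the read depth behind them is unknown.

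Initiation is the step of translation at which a ribosome is loaded onto an mRNA and placed at the start codon. The eIF4 proteins recognise the cap and unwind the leader, eIF3 holds the small ribosomal subunit, and eIF2 brings the initiator tRNA, while eIF1 and eIF1A keep start codon choice accurate. After start codon recognition eIF5 triggers GTP hydrolysis on eIF2, eIF5B joins the large subunit, and eIF2B recharges eIF2 with GTP. Phosphorylation of eIF2 blocks that recharging and is a common brake on protein synthesis under stress. In the early fly embryo, where much control of gene expression acts on maternal mRNA, the cap-binding protein eIF4EHP represses the translation of caudal.

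The reference sequence at 5 summits is shown: eIF2Bbeta and eIF4EHP for their strong peaks in both replicates, eIF1 and eIF3a for the word TATCGATA beside the summit, and eIF2Balpha for the short interval it shares with a divergent gene. Each stretch is on the plus strand of dm6 (RefSeq Release 6 genome). Capitals mark matches on either strand to ACAGTG, to AAAATA, to the DNA replication-related element (DRE) TATCGATA, to GGTCACACT for the promoter factor M1BP, to the TATA word TATAAA, to the E-box CACGTG, to the GAGA word GAGAG or to the word GCACCC. The stretch chrX:2703853-2703967 runs from the start of Ugalt toward eIF2Bbeta. The stretch chr3L:3222961-3223110 runs from the start of RpL28 toward eIF1. The stretches chr3R:29935889-29935977 at eIF2Balpha and chr3R:4433896-4433964 at eIF3a are the whole intervals between a divergent pair of gene starts. The stretch chr3R:24109140-24109290 is centred on the eIF4EHP summit.
eIF2Bbeta: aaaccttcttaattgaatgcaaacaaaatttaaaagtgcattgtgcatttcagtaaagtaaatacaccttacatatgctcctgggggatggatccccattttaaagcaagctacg
eIF1: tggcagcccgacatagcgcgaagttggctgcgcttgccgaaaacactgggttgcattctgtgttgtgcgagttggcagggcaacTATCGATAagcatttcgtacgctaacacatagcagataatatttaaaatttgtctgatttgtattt
eIF2Balpha: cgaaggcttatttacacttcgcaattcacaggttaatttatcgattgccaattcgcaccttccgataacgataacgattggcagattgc
eIF3a: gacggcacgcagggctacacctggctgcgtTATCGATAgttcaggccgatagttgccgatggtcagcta
eIF4EHP: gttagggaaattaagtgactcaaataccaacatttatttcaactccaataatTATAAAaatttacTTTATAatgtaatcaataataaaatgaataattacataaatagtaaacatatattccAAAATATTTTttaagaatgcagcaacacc

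In these stretches the DRE, an element found at many housekeeping promoters, lies 10 bases from the eIF1 summit and covers the eIF3a summit. The eIF2Bbeta and eIF2Balpha stretches held none of the searched words. The eIF4EHP stretch held 2 matches to TATAAA and 2 overlapping matches to AAAATA, and its GC content was 21.2%, against 58.0% in the eIF3a stretch.

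Of the 44 genes, 8 (18.2%) were bound in the optimal list, beside 14.0% of all protein-coding genes. In the replicate 1 list 7 were bound (15.9%, all genes 10.1%), and in the replicate 2 list 6 (13.6%, all genes 9.57%). In both replicate lists 6 were bound (13.6%, all genes 7.76%). The share of initiation factor genes lay a few percentage points above that of all genes in each list, a difference that was not tested and from which nothing particular to the group is read. The bound genes of the optimal list were eIF1, eIF2Balpha, eIF2Bbeta, eIF3a, eIF3c, eIF3h, eIF5B and eIF6. None of the 3 eIF2 subunit genes and none of the 13 eIF4 genes was among them. Both groups are too small to compare with the share of all genes. Of the 8 genes, 5 were also bound in both replicate lists, eIF3a was bound in that of replicate 1 only, and eIF2Balpha and eIF3h were bound in neither. All 8 were bound in the authors' conservative list, which was also made from both replicates (18.2%, all genes 13.1%). The eIF4 gene eIF4EHP was bound in both replicate lists but had no summit in the optimal list as used here.

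The median of the strongest optimal-list signal was 181 over the 8 bound initiation factor genes (80.1 to 1221) and 125 over all 1950 bound genes. In the replicate 1 list the median was 117 over the 7 bound initiation factor genes and 91.6 over all bound genes, and in the replicate 2 list it was 167 over 6 and 71.6. Both sets include eIF4EHP, and without it, a choice made after its values were seen, the medians were 112 over 6 and 89.6 over 5 genes. The 8 genes lay at levels far apart: eIF2Bbeta and eIF6 near the top of the optimal list, eIF1, eIF3c and eIF5B close together at ranks 557 to 577, and eIF2Balpha, eIF3a and eIF3h below the median of 103 of all optimal-list peaks.

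**Figure D1:**
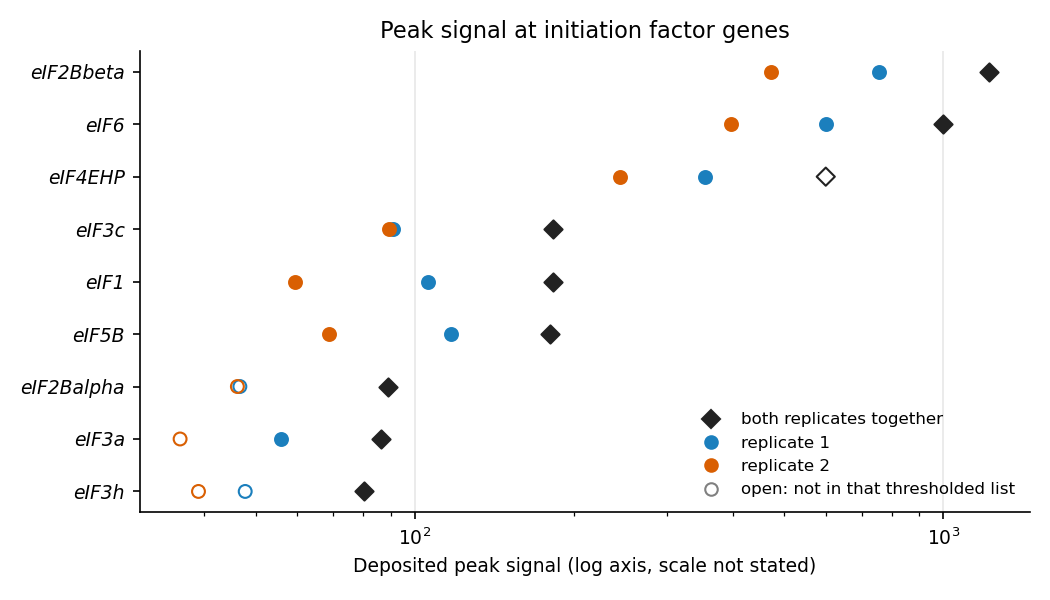
Deposited peak signal (log axis) at the 8 bound initiation factor genes and at eIF4EHP, for both replicates together (diamonds), replicate 1 and replicate 2 (circles); open symbols are values of the ranked list where the peak is not in that thresholded list. Values of both replicates together and of 1 replicate share the axis for display only. The signal at eIF2Bbeta was 1221 and at eIF3h 80.1, and the replicate 1 value was the higher of both replicates for every gene shown.

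eIF2B is the exchange factor that returns eIF2 to its GTP-bound form, and 2 of its 5 subunit genes were bound in the optimal list, 1 of them in each replicate list. The peak at eIF2Bbeta (FBgn0024996) had a signal of 1221 in the optimal list, 754 in replicate 1 and 471 in replicate 2. It ranked 5 by signal in the optimal list, 5 in replicate 1 and 9 in replicate 2. Its global irreproducible discovery rate (IDR, which is low where a peak ranks high and alike in the repeats compared) was 1e-05. The site was thus among the strongest of each list, and the summits of both replicates lay 1 bp from that of the optimal list. The peak, chrX:2703742-2704019, lay between genes, with its summit 679 bp upstream of eIF2Bbeta. The start of Ugalt, which encodes a UDP-galactose transporter and runs the other way, was 40 bp from the same summit. By nearest start the site is therefore assigned to Ugalt, and eIF2Bbeta is counted only because the window reaches 1000 bp.

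The peak at eIF2Balpha (FBgn0039726), chr3R:29935743-29936072, was much weaker, with a signal of 89.0, rank 1703 and an IDR of 0.00375 in the optimal list. It was in neither replicate list. The ranked lists, which also hold peaks past the IDR threshold of 0.01, gave it 46.7 in replicate 1 (IDR 0.0284) and 46.2 in replicate 2 (IDR 0.0163). Both replicates thus had an almost equal signal there that missed the threshold in each. The summit lay 20 bp upstream of eIF2Balpha and 70 bp from the divergent start of Vps13B, and the starts were 90 bp apart.

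The remaining eIF2B genes were not bound, with their strongest ranked-list peak within 1000 bp at 60.5 for eIF2Bdelta (IDR 0.0455), 39.3 for eIF2Bgamma and 35.4 for eIF2Bepsilon. None of the 3 genes for eIF2 itself, the substrate of eIF2B, was bound. The ranked-list signal was 27.6 at eIF2gamma and 18.5 at eIF2beta, and eIF2alpha, which carries the phosphorylated residue, had no peak within 1000 bp in any ranked list. The counts of 2 of 5 and 0 of 3 genes are too small to compare.

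eIF3, the largest initiation factor, had 3 of its 16 genes bound in the optimal list (18.8%, all genes 14.0%). It had 2 in replicate 1 (12.5%, all genes 10.1%) and 1 in replicate 2 (6.25%, all genes 9.57%). These shares lay near those of all genes, and nothing particular to eIF3 is read from them. The peak at eIF3c (FBgn0034258), a core subunit, had a signal of 183 in the optimal list, 90.9 in replicate 1 and 89.6 in replicate 2. It was the member with the most equal values among those in both replicate lists, with a log2 ratio of replicate 1 to replicate 2 of 0.02. Its summit lay 24 bp upstream of eIF3c on chr2R:17665489-17665818, and the start of CCHa1-R, a neuropeptide receptor gene on the other strand, was 586 bp from it. The peak at eIF3a (FBgn0037249), another core subunit, had a signal of 86.2 in the optimal list, 55.9 in replicate 1 and, in the ranked list only, 36.0 in replicate 2 (IDR 0.199). Here replicate 2 fell well short of the threshold. The summit, on chr3R:4433762-4434091, lay 32 bp upstream of eIF3a and 38 bp from the divergent start of CG1074, inside an interval of 70 bp between the starts.

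The peak at eIF3h (FBgn0022023), another subunit gene, had a signal of 80.1 in the optimal list and, in the ranked lists only, 47.8 in replicate 1 (IDR 0.0205) and 39.0 in replicate 2 (IDR 0.0183). Of the 8 bound genes, it had the lowest optimal-list signal and was the one whose summit lay inside its own intron, 316 bp downstream of the nearer TSS, on chr2L:5052299-5052628. The start of senju, on the other strand, was 379 bp from the summit. The other 13 eIF3 genes were not bound: their ranked-list signal ran from 16.7 at eIF3i to 53.2 at eIF3j and eIF3m, with 43.6 at eIF3b, 41.0 at eIF3k, 32.9 at eIF3l and 24.3 at eIF3e between them. The paralog pairs gave 31.7 at eIF3d1 and 30.3 at eIF3d2, 46.2 at eIF3f1 and 25.1 at eIF3f2, and 32.6 at eIF3g1 and 43.4 at eIF3g2. No pair had a bound copy, and neither the lower nor the higher numbered copy was always the stronger.

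eIF1 and eIF5B act at start codon choice and at the joining of the large subunit, and both genes were bound in the optimal list and in each replicate list. The peak at eIF1 (FBgn0035423) had a signal of 183 in the optimal list, 106 in replicate 1 and 59.4 in replicate 2. Its log2 ratio of 0.84 was the highest among the 8 genes. The peak, chr3L:3222870-3223199, had its summit 306 bp upstream of eIF1 and 75 bp from the divergent start of RpL28, a gene of the large ribosomal subunit. A second, overlapping peak, chr3L:3223071-3223400, had a signal of 62.4 and a summit 105 bp from the eIF1 start, so that the weaker of both peaks was the nearer to eIF1. The partner of eIF1 in scanning, eIF1A, was not bound and had a ranked-list signal of 22.6.

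The peak at eIF5B (FBgn0026259) had a signal of 180 in the optimal list, 117 in replicate 1 and 68.9 in replicate 2. It lay on chr3L:3460558-3460887, with the summit 120 bp upstream of the inner TSS and inside the 5' UTR of the longer transcript. The starts of armi, a gene of the piRNA pathway, and of CG46463 lay 594 and 592 bp away on the other strand. eIF5B also held 4 further optimal-list summits in its introns, with signals of 187, 70.7, 80.5 and 5.52, from 10498 to 27749 bp from its nearest TSS. The strongest of these, chr3L:3432689-3433018, exceeded the promoter peak slightly. The gene for eIF5, the GTPase activator of eIF2, was not bound and had a ranked-list peak in replicate 2 only, with a signal of 21.5.

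The peak at eIF6 (FBgn0034915), a factor that keeps the ribosomal subunits apart and acts in the maturation of the large subunit, had a signal of 997 in the optimal list, 600 in replicate 1 and 397 in replicate 2. It ranked 13 in the optimal list, 11 in replicate 1 and 16 in replicate 2. With eIF2Bbeta it had the highest values of the group in every list, followed in the replicate lists by eIF4EHP. The summit, on chr2R:23850285-23850532, lay 110 bp upstream of eIF6 and in an intron of ytr, which starts 662 bp from the summit on the same strand. The genes eIF2D and eIF2A, whose products are known from mammals as alternative initiator tRNA factors, were not bound and had ranked-list signals of 43.9 and 12.8.

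**Figure D2:**
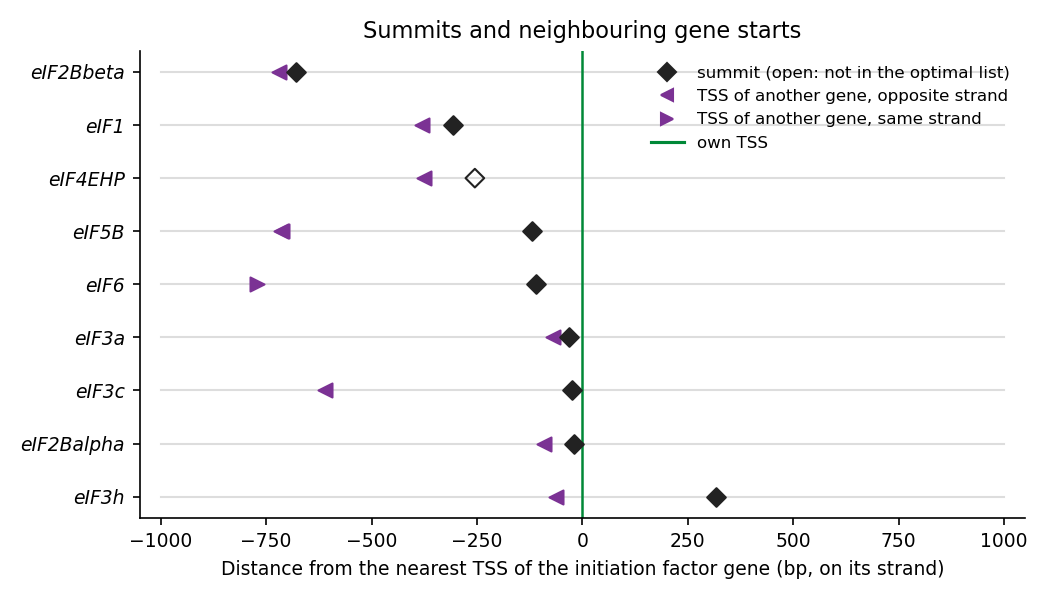
Position of the strongest summit (diamonds, open for eIF4EHP, whose peak is in the ranked list) and of other gene starts within 1000 bp of it (triangles pointing in the direction of that gene relative to the initiation factor gene), in bp from the nearest TSS of the initiation factor gene. The summits ran from 679 bp upstream at eIF2Bbeta to 316 bp downstream at eIF3h, and every peak had another gene's start in reach.

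The cap-binding group eIF4 had 13 genes, none bound in the optimal list, too few genes to compare with the 14.0% of all genes. The peak at eIF4EHP (FBgn0053100) nevertheless had a signal of 354 in replicate 1, where it ranked 48, and 245 in replicate 2, where it ranked 58. The ranked list of both replicates gave it 599, rank 56 and an IDR of 1e-05, on chr3R:24109071-24109322. All 3 values were higher than those of eIF1, eIF3c and eIF5B, and the summit lay 255 bp upstream of eIF4EHP and 121 bp from the divergent start of CG18428. The peak was not in the optimal or the conservative list as used here. Of the 2881 ranked arm peaks with an IDR of 0.01 or less, 109 were not in the optimal list, and this was the single one of them that overlapped a peak of both replicate lists. The cause was not tested. With the ranked list in its place, 9 of 44 genes (20.5%) were bound, beside 14.2% of all genes. An optimal-list peak of signal 121 lay in an eIF4EHP intron, 9826 bp from its TSS.

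The other 12 eIF4 genes had weak or no peaks within 1000 bp. The RNA helicase gene eIF4A had the highest ranked-list signal, 64.0, with an IDR of 0.0187, and was the gene closest to the threshold among those not bound. The scaffold gene eIF4G1 had no peak in any ranked list, while eIF4G2 had 36.4. Among the cap-binding eIF4E genes, the ranked list of both replicates gave 40.1 at eIF4E3, 37.3 at eIF4E4, 22.9 at eIF4E7 and 22.2 at eIF4E5. For eIF4E1, the main cap-binding protein, and for eIF4E6 a ranked-list peak was found in replicate 2 only, with signals of 16.5 and 10.4. The genes for eIF4B and eIF4H, known from mammals as cofactors of the helicase, gave 37.1 at eIF4H2 and 17.1 at eIF4B, and eIF4H1 had 12.7 in replicate 2 only. The eIF4EHP value of 599 in that list was thus far above those of the eIF4E genes, of which the highest was 40.1.

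**Figure D3:**
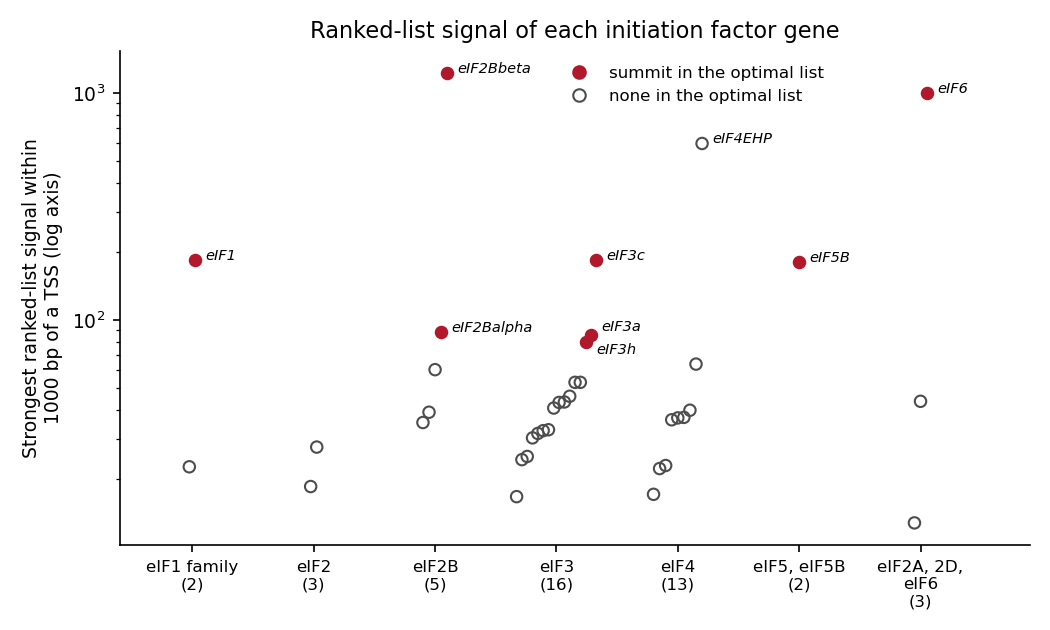
Strongest signal in the ranked list of both replicates within 1000 bp of a TSS (log axis) for each initiation factor gene with such a peak, by role with the number of genes in parentheses; filled points had a summit in the optimal list. Of the 44 genes, 38 had such a peak, and outside the bound genes and eIF4EHP the highest was 64.0.

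Across the group, 38 of 44 genes (86.4%) had a peak of the ranked list of both replicates within 1000 bp, against 90.5% of all protein-coding genes, so that a ranked peak alone separates few genes. The median of these signals was 39.7 over the initiation factor genes and 36.5 over all genes with one. Over the 35 genes that were not bound, leaving out eIF4EHP, 29 had such a peak, with a median of 35.4, against 33.6 over all genes not bound. The levels of the unbound initiation factor genes were close to those of unbound genes in general. By distance, the nearest genes outside the window were eIF3d1, with an optimal-list summit at 1257 bp, and eIF3g1, with one at 1401 bp. The farthest bound summit inside the window was that of eIF2Bbeta at 679 bp.

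The replicate 1 signal exceeded the replicate 2 signal at all 8 bound genes, with log2 ratios from 0.01 to 0.84 and a median of 0.61. Over the 1260 optimal-list peaks found in both replicate lists the median was 0.36 with an SD of 0.36, and 6 of the 8 genes lay within 1 SD of it. At eIF2Balpha, eIF3a and eIF3h the ratio includes values of the ranked lists. Replicate 1 was thus the higher at all of these genes, as it was at the median shared peak.

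All 8 peaks at bound initiation factor genes also lay within 1000 bp of another gene's TSS, against 1190 of 1950 (61.0%) over all bound genes. The gene's own start was the nearest for 6 of 8, against 69.7%. A neighbour that starts within 1000 bp and runs away on the other strand was present at 6 of 8 bound genes, at 14 of 36 genes that were not bound (38.9%), at 59.8% of all bound genes and at 35.2% of all protein-coding genes. A divergent neighbour was thus more frequent at bound than at unbound genes both within the group and across the genome, which is described here without a test. A peak near such a pair is counted for both genes, so the calling rule by itself favours genes with such a neighbour. No conclusion is drawn from this contrast. eIF4EHP, which has such a neighbour, is counted here as not bound. The summits lay at a median of 115 bp from the TSS at the 8 genes, 179 bp at all bound genes and 42 bp at bound genes for cytoplasmic ribosomal proteins.

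In the promoter window from 250 bp before to 50 bp after the outermost TSS, TATCGATA was present on either strand at 12 of 44 initiation factor genes (27.3%). The share was 9.36% of all protein-coding genes, 13.0% of all bound genes and 30.4% of the genes for cytoplasmic ribosomal proteins. It was present at 4 of 8 bound genes (eIF2Bbeta, eIF3a, eIF3c and eIF6) and at 8 of 36 that were not bound (22.2%). Within 100 bp of the summit it was present at 2 of 8 genes (eIF1 and eIF3a), against 2.78% of all optimal-list peaks. These sets are unlike, since all 8 summits lie within 1000 bp of a TSS and the full list was not limited to such peaks. For eIF2Bbeta, eIF3c and eIF6 the element thus lay in the promoter window but not in the summit window.

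The TCT initiator of ribosomal protein genes, searched as TCTTT or as the variant CCTTT on the gene's strand within 10 bp of the TSS, was present at 5 of 44 initiation factor genes (11.4%), namely eIF3d1, eIF3f1, eIF3g1, eIF3i and eIF4A. None of these was bound, which are too few genes to compare. The share was 3.44% of all genes, 4.36% of all bound genes and 43.5% of the genes for cytoplasmic ribosomal proteins. ACAGTG, a word present in 22.2% of the summit windows of all optimal-list peaks, was in 0 of the 8 summit windows here. In the promoter window it was present at 7 of 44 genes (15.9%), 1 of them bound (eIF3c), against 14.0% of all genes. AAAATA was in 3 of 8 summit windows against 55.2% of all peaks, and TATAAA in 2 of 8 against 35.3%. In the promoter window AAAATA was instead present at 72.7% of initiation factor genes and at 6 of the 8 bound ones. The shares were 60.1% of all genes and 68.8% of all bound genes. TATAAA was present in 45.5% of initiation factor promoters and 45.9% of all promoters. GAGAG was present in 15.9% of initiation factor promoters and 29.8% of all promoters. The promoter shares of all genes for the remaining words were 6.04% for GGTCACACT (6.82% here), 4.23% for CACGTG (6.82% here) and 5.33% for GCACCC (9.09% here). The GC content of the 8 summit windows ran from 36.8% to 49.8% with a median of 40.5%, higher than the median of 35.3% over all optimal-list peaks. Base composition bears on how often such words occur, and its part in these counts was not tested. The set of all optimal-list peaks was not limited to peaks near a TSS, unlike the 8. The contrasts of summit windows, in words and in GC content, are therefore between unlike sets.

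Among other genes of the translation machinery, 10 of 29 (34.5%) were bound in the optimal list, 4 in replicate 1 (13.8%) and 7 in replicate 2 (24.1%). The shares of all protein-coding genes in these lists were 14.0%, 10.1% and 9.57%. Of the 10 elongation and release factors 6 were bound in the optimal list, 2 in replicate 1, 5 in replicate 2 and 2 in both replicate lists. The strongest was eEF1gamma with 289 in the optimal list, 136 in replicate 1 and 156 in replicate 2, with eEF1alpha1 at 146 and the release factor eRF1 at 141 in the optimal list. Of the 12 cap-binding regulators and poly(A) proteins 4 were bound in the optimal list and 2 in each replicate list, with optimal-list signals of 184 at the poly(A)-binding protein gene pAbp, 139 at larp and 81.5 at mTor. None of the 4 genes of the eIF2 kinase and stress list and none of the 3 recycling and reinitiation genes was bound. Both lists are too small to compare with the share of all genes. The cytoplasmic ribosomal protein genes were bound at 51 of 92 (55.4%, median signal 128), the mitochondrial ones at 12 of 73 (16.4%, median 283) and the aminoacyl-tRNA synthetase genes at 7 of 33 (21.2%, median 161). In count the initiation factor genes lay nearer to the synthetase and mitochondrial ribosome genes than to those of the cytoplasmic ribosome, and none of these differences was tested.

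**Figure D4:**
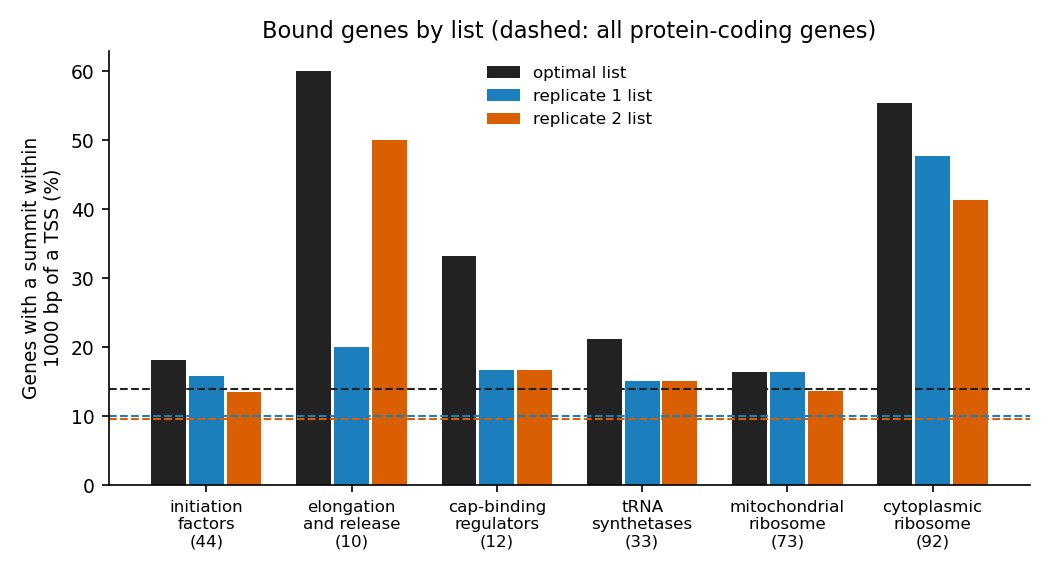
Share of bound genes (%) in the optimal list and in each replicate list, for the initiation factor genes and 5 other groups of translation genes, with the number of genes in parentheses; dashed lines give the share of all protein-coding genes in the list of the same colour. The initiation factor genes stood at 18.2%, 15.9% and 13.6% and the cytoplasmic ribosomal protein genes at 55.4%, 47.8% and 41.3%.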

How the data were processed

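Chromatin immunoprecipitation sequencing was done by the authors on 2 biological replicates of 1 group, with aligner and caller not given in the sources used here. Peaks are on dm6, per the labels. The signal column was deposited by the authors and used unchanged. The global IDR was computed here from its −log10, which the authors deposited in the ranked lists. In all 7 peak lists were used, and another ranked list made from both replicates was not. An IDR given for a single replicate comes from that replicate's own list and does not compare the replicates with each other. Which repeats were compared for the IDR of the list from both replicates was not checked. That IDR is therefore not read as agreement between the replicates. The 8 signal columns of single libraries in the ranked lists were not used. Counting error cannot be given, because read depth is unknown.

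Genes and TSSs came from Ensembl release 115 (13968 protein-coding genes, 19630 TSSs on the arms) and sequence from the RefSeq Release 6 genome, and coordinates are 1-based. A gene's signal is that of its strongest summit within 1000 bp of any TSS. Replicate values at a site come from the peak that overlaps it. Every initiation factor gene is named, with genes that share a bound peak and up to 3 bound genes of each other list. The site at eIF2Balpha was added to the sequences after its values were seen. Of 30 other translation genes listed, 29 were matched by symbol, with Tor (mTor) and Nat1 (NAT1) resolved by hand. The members and lists were chosen with earlier results of these data known, and no test was run. Counting and distance steps were tested on simulated data. Alternatives changed the list, the IDR threshold, the window, the assignment of peaks to genes and the TSSs used. Scripts ran under Python 3.11.15 with pandas 2.3.3 and numpy 2.4.6, and figures were drawn in matplotlib 3.10.9.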

Additional observations from a re-analysis of the deposited data

How the results depend on the processing

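The number of bound initiation factor genes was 8 in the optimal list and ran from 5 to 10 over the settings tried. With an IDR of 0.001 or less it was 5 (11.4% of them), with 1123 bound genes overall (8.04%) and 5 other translation genes. With a window of 250 bp 6 were bound (13.6%), beside 1267 of all genes (9.07%). The median signal of the bound initiation factor genes was then 134, and those bound in both replicate lists were 3. With a window of 2000 bp 10 were bound (22.7%, all genes 17.9%), adding eIF3d1 and eIF3g1. With each peak assigned to its nearest TSS only, 7 were bound (15.9%, all genes 9.97%), without eIF2Bbeta. eIF1 remained only through its weaker peak of 62.4, since its peak of 183 lay nearer to the start of RpL28. The median signal was then 89.0 and 3 were bound in both replicate lists. With the list of 1 replicate at a time, the other translation genes bound ran from 4 to 7 and the median summit distance from 122 to 187 bp. The median signal ran from 117 to 167 and is not compared with that of the optimal list. The 5 genes bound in the optimal and both replicate lists are those with an IDR of 0.001 or less. The ranked list in place of the optimal list, which gave 9, was chosen after seeing the data. The causes of these shifts were not tested. No paired analysis was possible because there is 1 group. Signals of lists from both replicates and from a single replicate are not on a common scale, read depth is unknown, and a window of 1000 bp counts a peak for every gene that starts within it.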
